A study of Mus musculus with 16 samples.

Results

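The genes examined were the 6 members of the imprinted Peg10 and Mest clusters on mouse chromosome 6, out of 54453 genes in the expression table. They were chosen by name, with earlier results of these data known. Each symbol was matched to one Ensembl gene through the mm10 annotation. Sgce, Peg10, Ppp1r9a and Asb4 make up the Peg10 cluster, and Mest and Copg2 make up the Mest cluster. All 6 had an average value above 0 and entered the fit over 15285 protein-coding genes. Their RNA was measured in 16 lines of immortalised mouse embryonic fibroblasts (MEFs), by total RNA-sequencing with 1 library per line. The lines came from sibling C57BL/6J embryos taken at stage E13.5, one of which gave the parental line MEF-1 and the other MEF-2, and both lines became immortal through serial passage beyond crisis. Single cells were sorted from each parental line and grown into 7 clonal lines, so that there were 4 groups, MEF-1 parental, MEF-1 clonal, MEF-2 parental and MEF-2 clonal. The clonal lines of a set stand as its replicates and the parental lines have none. Each set goes back to a single embryo, and per the study's methods the sets also differ in sex (MEF-1 male, MEF-2 female) and karyotype. In every comparison of the sets, embryo, sex, karyotype and passage history cannot be told apart.

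Imprinted genes are expressed mainly from the copy inherited from one parent, which is marked by DNA methylation laid down in the egg or the sperm and kept through later divisions. At both clusters the mark is methylation of the maternal copy, over the promoter shared by Peg10 and Sgce and over the promoter of Mest, so that these genes are known as paternally expressed. Asb4 and Ppp1r9a are known as maternally expressed genes in some tissues, and Copg2 shows a maternal bias in some tissues and expression from both copies in others. As the embryos were of one inbred strain, the parental copies cannot be told apart in these data, and each value is the sum over both.

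In the annotation, Sgce (minus strand) and Peg10 (plus strand) start head to head, 98 bases apart, at chr6:4674350-4747207 and chr6:4747306-4760517. Ppp1r9a lies 142 kb beyond the end of Peg10 at chr6:4902917-5165661 (plus strand), and Asb4 a further 218 kb away at chr6:5383386-5433022 (plus strand). Mest (chr6:30723547-30748465, plus strand) begins 25.3 Mb beyond Asb4, and its 3′ end overlaps by 912 bases the 3′ end of Copg2 (chr6:30747554-30896794, minus strand). The RNA libraries were directional, but whether strand was used in counting is not given in the sources used here, so that reads of the overlap could have been given to either gene. All these positions are in mm10.

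The promoter windows below show starts of members, from 250 bases before to 50 bases after the start, as given by RefSeq for GRCm38.p6. Windows were found for 4 of the 6 members, namely Mest, Copg2, Ppp1r9a and Asb4, and not for Sgce and Peg10. Where a gene had several starts, the window with the most CpG sites is shown for Mest and Ppp1r9a, and that of the start farthest upstream for Asb4. Capitals mark the hexamer TGCCGC or, where it lies on the other strand, GCGGCA, the letters bound by ZFP57 when their CpG is methylated. Over all 32817 windows of 300 bases, 11.6% held it on either strand and the median number of CpG sites was 7.

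Mest, chr6:30737800-30738099, plus strand: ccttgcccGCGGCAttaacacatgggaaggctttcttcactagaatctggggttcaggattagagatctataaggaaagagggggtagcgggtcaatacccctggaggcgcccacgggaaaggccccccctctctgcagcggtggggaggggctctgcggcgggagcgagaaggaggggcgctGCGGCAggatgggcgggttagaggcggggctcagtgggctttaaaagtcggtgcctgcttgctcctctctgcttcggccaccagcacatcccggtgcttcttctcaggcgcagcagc

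Copg2, chr6:30896745-30897044, minus strand: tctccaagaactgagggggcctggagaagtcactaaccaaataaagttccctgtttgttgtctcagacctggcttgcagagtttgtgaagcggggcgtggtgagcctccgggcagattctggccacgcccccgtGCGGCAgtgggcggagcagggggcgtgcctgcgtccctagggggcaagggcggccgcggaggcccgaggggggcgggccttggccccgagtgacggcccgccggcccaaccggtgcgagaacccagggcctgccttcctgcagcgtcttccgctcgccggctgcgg

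Ppp1r9a, chr6:4903061-4903360, plus strand: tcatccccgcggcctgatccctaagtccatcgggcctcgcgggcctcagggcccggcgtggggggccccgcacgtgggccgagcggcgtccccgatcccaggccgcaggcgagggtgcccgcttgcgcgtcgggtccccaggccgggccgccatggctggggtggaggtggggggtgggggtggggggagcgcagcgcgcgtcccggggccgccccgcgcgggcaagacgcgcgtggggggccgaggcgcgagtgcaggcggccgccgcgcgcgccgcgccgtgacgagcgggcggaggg

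Asb4, chr6:5383136-5383435, plus strand: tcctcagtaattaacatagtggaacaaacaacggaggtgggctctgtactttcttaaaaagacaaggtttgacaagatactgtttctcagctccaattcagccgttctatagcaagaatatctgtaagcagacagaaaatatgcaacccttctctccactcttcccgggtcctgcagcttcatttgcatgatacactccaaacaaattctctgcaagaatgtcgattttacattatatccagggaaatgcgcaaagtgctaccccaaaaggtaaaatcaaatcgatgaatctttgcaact

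The window of Mest held 17 CpG sites and 2 matches to the hexamer, and that of Copg2 held 25 CpG sites and 1 match. The window shown for Ppp1r9a held 48 CpG sites, more than 98.8% of all windows, but that of its other start held 10. The window shown for Asb4 held 6 CpG sites and that of its other start 8, both close to the median of all windows. A start of Mest farther upstream had 8 CpG sites and 0 matches to the hexamer. The letters of the hexamer were not found in the windows of Ppp1r9a and Asb4. These matches describe the sequence only, as methylation and binding were not analysed here.

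Values are “regularised log” (rlog) values, that is, log2 counts corrected for library size in which each line is drawn towards the mean of its gene. Read numbers cannot be had from them, and fold changes understate differences of genes with few reads. Of the fibroblast markers, 11 of 12 lay above the 40th percentile of the averages of all protein-coding genes in every line, the exception being Thy1. Of the trophoblast markers, a cell type in which several of the members are known to be active, 0 of 4 did so in every line, and of the endothelial, blood, muscle, epithelial, pluripotent and neural markers 1 of 4, 1 of 5, 1 of 4, 1 of 6, 1 of 4 and 3 of 4. Tpbpa of trophoblast, Hbb-bs of red blood cells and Zfp42 of pluripotent cells were listed at 0 in all lines. The clonal lines of MEF-2 were compared with those of MEF-1 with limma over all genes fitted, with Benjamini-Hochberg adjustment, and a gene was called at an adjusted p under 0.05. The sets differed widely, with 8573 of 15285 genes called, and 3961 genes without overlap between the sets. The median of 617 genes of chromosome 6, taken without the members, was lower in MEF-2 by only a small amount, −0.0354 ± 0.0328 (SD, n = 7) against 0.0183 ± 0.036 in MEF-1 (exact permutation test, two-sided, p = 0.0198). This call was lost in the fit with a replicate block, which pairs clones by number. It was also lost without MEF-1 clonal lines 4 and 5, chosen after seeing the data (−0.0426, exact permutation test, p = 0.0631).

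Of the 6 members, 5 were lower in the MEF-2 clonal lines (Sgce, Peg10, Ppp1r9a, Asb4 and Mest) and Copg2 was not called, where 56.1% of all genes fitted were called, 28.6% as lower and 27.5% as higher. In 4 of them (Sgce, Ppp1r9a, Asb4 and Mest) every MEF-2 clonal line lay below every MEF-1 clonal line, as for 13.6% of all genes fitted (25.9% in either direction). The differences ran from 1.88-fold in Sgce to 9.64-fold in Asb4. With the chromosome 6 median of each line taken off, the same 5 genes differed in the exact permutation test and Copg2 did not.

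**Figure D1:**
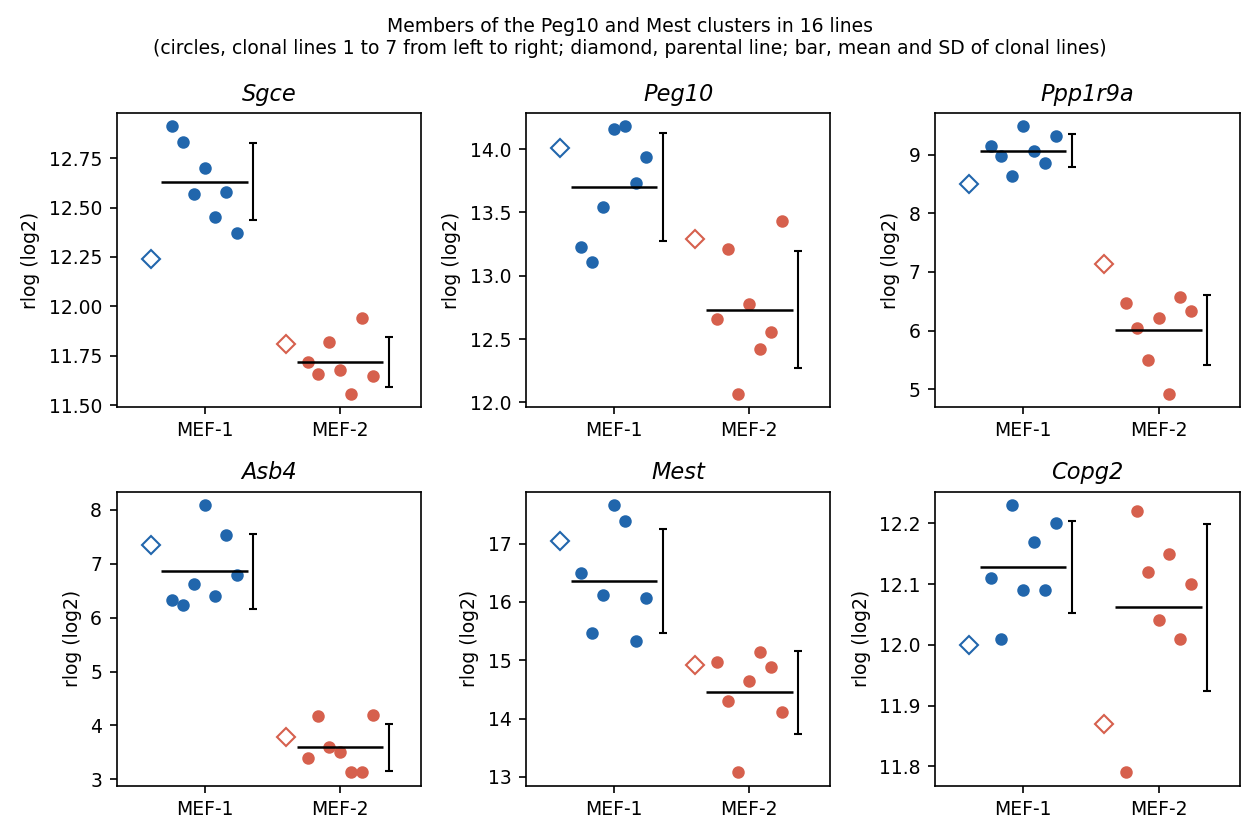
rlog values (log2 scale, y axis, a separate scale in each panel) of the 6 members in the 16 lines. Circles are clonal lines, diamonds are parental lines, and the bars give the mean and SD of 7 clonal lines. MEF-1 and MEF-2 clonal lines do not overlap in Sgce, Ppp1r9a, Asb4 and Mest, and overlap in Peg10 and Copg2.

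Sgce encodes ε-sarcoglycan, a membrane glycoprotein of the dystrophin-associated complex. Its rlog values were 12.91, 12.83, 12.57, 12.70, 12.45, 12.58 and 12.37 in MEF-1 clonal lines 1 to 7, and 11.72, 11.66, 11.82, 11.68, 11.56, 11.94 and 11.65 in MEF-2 clonal lines 1 to 7. The lowest MEF-1 line stood 0.43 above the highest MEF-2 line. The means were 12.63 ± 0.20 and 11.72 ± 0.13 (SD, n = 7 each), a difference of −0.91 (SE 0.08, limma, adjusted p = 4.43e-07), or 1.88-fold lower in MEF-2. In RNA of a whole culture, fewer expressing cells and less RNA per cell cannot be told apart, here and below. Relative to the chromosome 6 median the difference was −0.86 (exact permutation test, p = 0.000583, the smallest that 7 against 7 lines can give).

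Peg10, a gene derived from a retrotransposon and needed for the placenta, starts 98 bases from Sgce and differed by a like amount but with more spread. The MEF-1 clonal lines had values from 13.11 to 14.18 (median 13.73), while those of MEF-2 ran from 12.07 to 13.43 (median 12.66). The ranges overlapped, as MEF-1 lines 1 and 2 (13.23 and 13.11) lay below MEF-2 line 7 (13.43). The means were 13.70 ± 0.43 and 12.73 ± 0.46, a difference of −0.97 (SE 0.22, limma, adjusted p = 0.00155), or 1.95-fold lower in MEF-2. Relative to the chromosome 6 median it was −0.92 (exact permutation test, p = 0.00408). Although the difference between the sets had the same direction in both genes, single clones did not follow each other. The correlation of Peg10 with Sgce was −0.725 over the 7 MEF-1 clonal lines (Spearman's rho −0.643) and −0.38 over the 7 MEF-2 clonal lines (rho −0.393). Without the 2 lines farthest from the median of Peg10 it was −0.0657 and −0.0914, so that within a set the relation rests on few lines. Over all 14 clonal lines, each set centred on its mean, it was −0.564 (rho −0.609), and −0.563 without the 2 farthest lines.

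Ppp1r9a encodes neurabin-1, which binds actin filaments and targets protein phosphatase 1 to them. Its values were 9.15, 8.98, 8.63, 9.48, 9.06, 8.85 and 9.32 in MEF-1 clonal lines 1 to 7, and 6.47, 6.04, 5.50, 6.21, 4.93, 6.58 and 6.33 in MEF-2 clonal lines 1 to 7. No MEF-2 clonal line came within 2.05 of the lowest MEF-1 clonal line. The difference was −3.06 (SE 0.24, limma, adjusted p = 6.48e-08), or 8.33-fold lower in MEF-2, and only 1.13% of all genes fitted had a difference as low or lower. Relative to the chromosome 6 median it was −3.01 (exact permutation test, p = 0.000583).

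Asb4 encodes an ankyrin repeat protein with a SOCS box, the part that selects targets for a cullin 5 ubiquitin ligase. Its values were 6.33, 6.24, 6.62, 8.09, 6.41, 7.54 and 6.79 in MEF-1 clonal lines 1 to 7, and 3.40, 4.17, 3.60, 3.51, 3.13, 3.14 and 4.19 in MEF-2 clonal lines 1 to 7. The sets stood apart by 2.04, and MEF-1 lines 4 and 6 were the highest. The difference of −3.27 (SE 0.29, limma, adjusted p = 3.22e-07), or 9.64-fold lower in MEF-2, was the largest of the 6 members, and 0.883% of all genes fitted had a difference as low or lower. Relative to the chromosome 6 median it was −3.22 (exact permutation test, p = 0.000583). The rlog level given to a line without reads depends on the gene's own mean. Ddx3y, a gene of the Y chromosome, was given 5.58 to 5.68 in the MEF-2 clonal lines, within the MEF-2 values of Ppp1r9a and above those of Asb4. Asb4 and Ppp1r9a varied over 1.06 and 1.64 among these lines, but whether they were transcribed in every MEF-2 clonal line cannot be read from the level of their values.

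Mest encodes a protein of the α/β-hydrolase fold found in embryonic mesoderm and growing fat tissue. Its values were 16.49, 15.47, 16.12, 17.66, 17.38, 15.33 and 16.07 in MEF-1 clonal lines 1 to 7, and 14.97, 14.30, 13.08, 14.65, 15.14, 14.88 and 14.12 in MEF-2 clonal lines 1 to 7. MEF-1 lines 4 and 5 were the highest and MEF-2 line 3 was the lowest, and the gap between the sets was only 0.19. The means were 16.36 ± 0.89 and 14.45 ± 0.70, a difference of −1.91 (SE 0.39, limma, adjusted p = 0.000741), or 3.76-fold lower in MEF-2. Relative to the chromosome 6 median it was −1.86 (exact permutation test, p = 0.000583). Without MEF-1 lines 4 and 5, left out after their values were seen, the difference was −1.45 (limma, adjusted p = 0.00241).

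Copg2, whose 3′ end overlaps that of Mest, encodes a γ subunit of the COPI coat of transport vesicles. It ran from 12.01 to 12.23 in the MEF-1 clonal lines (median 12.11), and the MEF-2 clonal lines lay between 11.79 and 12.22 (median 12.10). The sets overlapped, with a wider range in MEF-2 (0.43 against 0.22), where line 1 was the lowest. The difference was −0.07, with a 95% confidence interval from −0.19 to 0.06 (limma, adjusted p = 0.366). The interval does not hold a change of the size seen in the other members. Relative to the chromosome 6 median the difference was −0.02 (exact permutation test, p = 0.758), and its sign was not stable (0.021 without MEF-2 line 1).

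The members also differed in how much single clones of one set varied. Among the 4375 genes of the highest expression group, the SD of Mest over the MEF-1 clonal lines was larger than that of 99.8% of genes, and over the MEF-2 clonal lines larger than that of 98.6%. For Peg10 the shares were 94.7% and 96.3%. Sgce was closer to the middle with 71.4% and 57.1%, and Copg2 was among the steadiest genes in MEF-1 with 8.82%, against 61.0% in MEF-2. Asb4 and Ppp1r9a belong to a lower group of 4374 genes, where their shares were 86.2% and 43.3% in MEF-1 and 72.5% and 83.0% in MEF-2.

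The parental lines, which are mixtures of cells and have 1 library each, showed the same order of the sets in all 6 genes. MEF-1 parental and MEF-2 parental had 17.05 and 14.92 for Mest, 7.35 and 3.78 for Asb4, 14.01 and 13.29 for Peg10, 12.24 and 11.81 for Sgce, and 12.00 and 11.87 for Copg2. For Mest, Peg10 and Asb4 the clones of both sets fell on either side of their parental line. Ppp1r9a moved away from the parental lines in opposite directions. Against 8.49 in MEF-1 parental, all 7 clonal lines were higher, by 0.57 on average, and against 7.13 in MEF-2 parental, all 7 clonal lines were lower, with a mean difference of −1.12. All 7 MEF-1 clonal lines were also above their parental line for Sgce, by 0.39 on average, and for Copg2, by 0.12. In MEF-2, 5 of 7 clonal lines were below the parental line for Sgce (mean difference −0.09) and 6 of 7 were above it for Copg2 (0.19). With a single parental library in each set, these differences were not tested.

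In the MEF-1 clonal lines, 3 genes to one side of Mest followed it from clone to clone. Klhdc10, Tmem209 and Cep41 end 268 kb, 214 kb and 29.8 kb from Mest, and the first 2 were singled out after their values had been seen. Klhdc10, an adaptor of a cullin 2 ubiquitin ligase, had 12.73, 12.21, 12.62, 13.42, 13.33, 12.46 and 12.47 in MEF-1 clonal lines 1 to 7. Lines 4 and 5 were the highest, as for Mest, and MEF-1 parental (13.02), also high for Mest, came next. In the MEF-2 clonal lines Klhdc10 stayed between 12.61 and 12.74 (SD 0.05, against 0.46 in MEF-1).

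The correlation with Mest over the 7 MEF-1 clonal lines was 0.964 for Klhdc10 (rho 0.964), 0.949 for Tmem209 (rho 0.857) and 0.831 for Cep41 (rho 0.929). Without lines 4 and 5, the farthest from the median of Mest, it was 0.809, 0.92 and 0.801. Of the 15284 other genes fitted, 17, or 0.111%, reached the correlation of Klhdc10, itself included, and 29 that of Tmem209. The correlation of Cep41 was less rare, as 348 genes, or 2.28%, reached it. Over the MEF-2 clonal lines the correlations were 0.0294, −0.152 and −0.0561, although Mest ranged over 2.06 there against 2.34 in MEF-1. Copg2, on the other side of Mest, did not follow it over the 7 clonal lines of either set (0.206 and −0.38). Neither did Zc3hc1 (0.358 in MEF-1) and Ube2h (0.0464 in MEF-1), 333 kb and 419 kb away. Without MEF-1 lines 4 and 5 the values were 0.574 for Copg2, 0.127 for Zc3hc1 and 0.558 for Ube2h, so that the contrast rests partly on these lines. Apart from Mkln1 (0.29 in MEF-1), the other fitted neighbours were not examined for this. The chromosome 6 median deviation of MEF-1 lines 4 and 5 was 0.054 and 0.06 and that of the other MEF-1 clonal lines ran from −0.034 to 0.051, and its part in these relations was not tested. The points share library and depth, as each line gave all values from 1 library, and the correlations are given as a description.

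**Figure D2:**
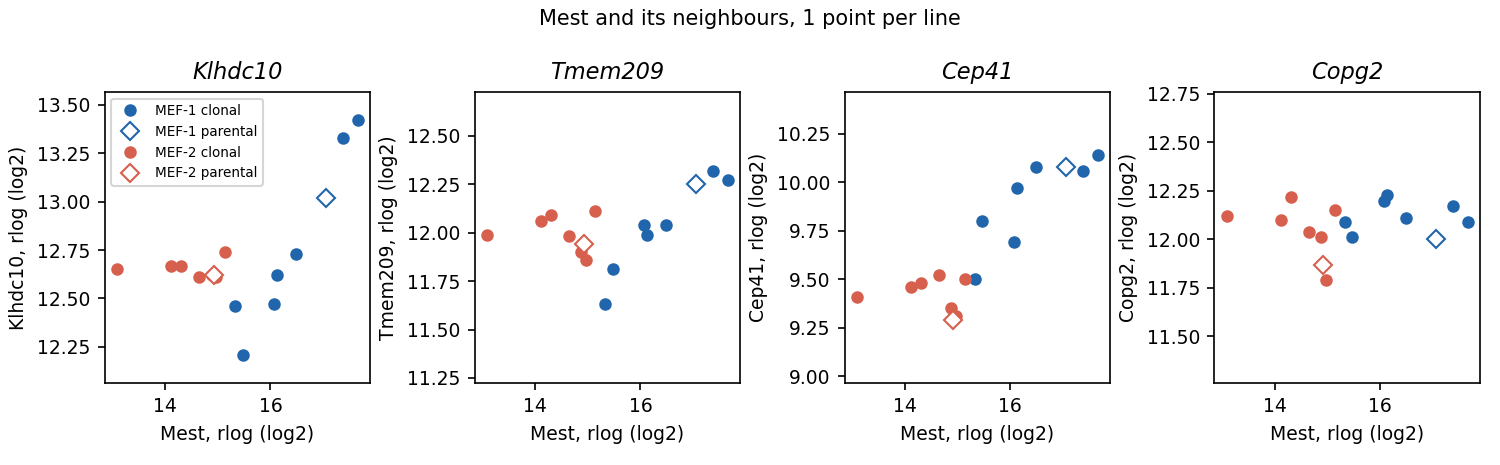
Klhdc10, Tmem209, Cep41 and Copg2 (y axis, rlog, log2 scale, each panel spanning the same height) against Mest (x axis, rlog, log2 scale), 1 point per line, with clonal lines as circles and parental lines as diamonds. In MEF-1 (blue) the first 3 genes are higher where Mest is higher (r = 0.964, 0.949 and 0.831 over 7 clonal lines), and in MEF-2 (red) they do not (0.0294, −0.152 and −0.0561).

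The wider neighbourhood of the clusters was then compared between the sets. Around the Peg10 cluster, 14 of 18 listed neighbours were fitted, of which 6 were lower and 3 higher in MEF-2 and 5 were not called (median difference −0.33, against −0.0043 over all genes fitted). Over all genes fitted 56.1% were called, 28.6% as lower, so that the share called here was near the background. Gng11, a G protein γ subunit gene 666 kb from Sgce, had the largest difference among them, close in size to those of Ppp1r9a and Asb4. It had 8.84 ± 0.21 in MEF-1 and 5.88 ± 1.04 in MEF-2 (difference −2.96, SE 0.37, limma, adjusted p = 9.72e-06). Casd1, a sialic acid O-acetyltransferase gene 31.0 kb from Sgce, was lower by a smaller amount (−0.63, SE 0.06, adjusted p = 5.88e-07). Pdk4, a kinase of pyruvate dehydrogenase 50.3 kb from Asb4, was not called (−0.67, SE 0.42, adjusted p = 0.183). Dlx5, a homeobox gene at the far end, was called (−1.25, SE 0.48, adjusted p = 0.0368), but 15 of 24 alternative settings lost this call, with adjusted p up to 0.128. The median of 27 genes above the 40th percentile within 10 Mb of Peg10 differed by 0.04, in the opposite direction to the members. It left out the members and other genes taken as imprinted, namely Pon2 (−0.44), Pon3 (−0.31), Pdk4 and Dlx5, which had lower means in MEF-2. It therefore does not cover the whole neighbourhood.

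Around Mest, 14 of 16 listed neighbours were fitted, of which 8 were lower and 1 higher in MEF-2 and 5 were not called (median difference −0.24), again beside 56.1% called and 28.6% lower over all genes fitted. Cep41, a gene of cilia, was lower (9.89 ± 0.23 against 9.43 ± 0.08, difference −0.46, SE 0.10, adjusted p = 0.000921), whereas Klhdc10 (−0.10, adjusted p = 0.624) and Tmem209 (−0.02, adjusted p = 0.898) were not called. Cpa4 (−0.70, adjusted p = 0.0486) and Tsga13 (−0.47, adjusted p = 0.0252), the latter 0.187 kb from the start of Copg2, were called by a small margin, and 15 and 4 of 23 alternative settings lost these calls. The median of 83 genes above the 40th percentile within 10 Mb of Mest, members left out, differed by 0.02 between the sets.

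**Figure D3:**
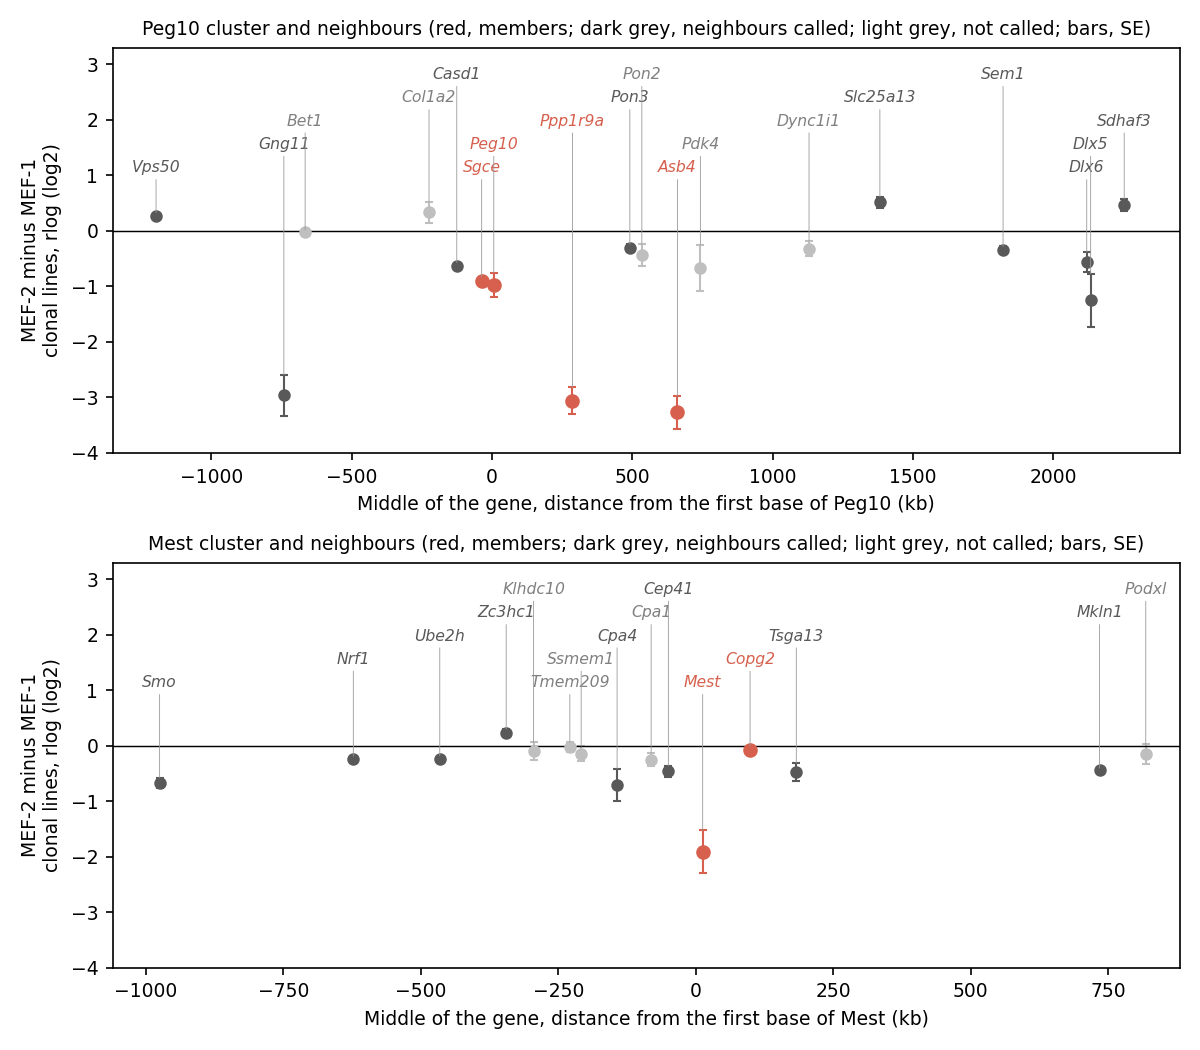
Difference of MEF-2 from MEF-1 in clonal lines (y axis, rlog, log2 scale, bars giving the SE) of members (red) and most fitted neighbours (grey) by the distance of the middle of the gene from the first base of Peg10 or Mest (x axis, kb). Ppp1r9a (−3.06), Asb4 (−3.27) and Gng11 (−2.96) stand below their neighbours, and Mest (−1.91) lies beside Copg2 (−0.07).

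The direction was not common to all imprinted genes of chromosome 6. Nap1l5, a paternally expressed gene within an intron of Herc3, was higher in MEF-2 (4.22 ± 0.70 against 6.23 ± 0.60, difference 2.01, SE 0.33, adjusted p = 0.000113), without overlap between the sets (3.37 to 5.20 and 5.55 to 7.22). Its host Herc3 was also higher (9.01 ± 0.30 against 9.98 ± 0.23, difference 0.98, SE 0.14, adjusted p = 3.36e-05). Reads of the nested gene and its host could have been shared between them.

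Genes that act with the members were called in both directions or not at all, and the counts of these lists stand beside 28.6% of all genes fitted called lower and 27.5% called higher. Of 11 fitted genes of the dystroglycan complex, to which the product of Sgce belongs, 3 were lower, 2 higher and 6 not called (median −0.10). The largest differences were in Sntb1, a syntrophin (7.72 ± 0.44 against 10.00 ± 0.44, difference 2.28, adjusted p = 7.13e-07), and Dtna, a dystrobrevin (0.94, adjusted p = 0.0052). Of 9 genes of the COPI coat, 1 was lower (Copz2, −0.51, adjusted p = 2.92e-06), 4 were higher, by at most 0.24 (Cope, adjusted p = 0.00257), and 4 were not called (median 0.11). Copg1, the other γ subunit beside Copg2, did not differ detectably (14.82 ± 0.06 against 14.82 ± 0.07, adjusted p = 0.896).

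For Asb4, 2 of 10 genes of ASB proteins and the cullin 5 ligase were lower, 1 was higher and 7 were not called (median 0.02), the largest difference being −0.44 in Asb13 (adjusted p = 0.000525), and Eloc, the one higher, had 0.20 (adjusted p = 0.0182). For Ppp1r9a, 1 of 4 genes of neurabin-2 and the catalytic subunits of protein phosphatase 1 was lower (Ppp1ca, −0.32, adjusted p = 0.002) and 3 were not called (median 0.01). Ppp1ca lies on chromosome 19, also aneuploid among these lines per the paper, and the part of dosage was not tested.

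Of 9 fitted genes that share with Peg10 an origin from retrotransposons, 5 were lower, 1 was higher and 3 were not called (median −0.40), where 28.6% of all genes fitted were lower and 27.5% higher. All of those lower except Rtl6 (Rtl8a, Rtl8b, Rtl8c and Rtl9), and Rtl5, the one higher, lie on the X chromosome. As the sets differ in sex, these counts cannot be read as a trait of the family, and the part of sex was not tested. Rtl6 had the largest difference, from 9.45 ± 0.23 in MEF-1 to 5.46 ± 0.58 in MEF-2 (−3.99, SE 0.23, adjusted p = 2.84e-09), with 9.41 in MEF-1 parental and 8.05 in MEF-2 parental. Rtl8c, on the X chromosome, was lower by less (−1.94, SE 0.24, adjusted p = 1.04e-05), but its parental lines did not differ in this direction (6.39 in MEF-1 and 6.48 in MEF-2).

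Of 10 fitted genes known to keep imprints or DNA methylation through division, 7 were higher in MEF-2, 1 was lower and 2 were not called (median 0.27), where 27.5% of all genes fitted were higher and 28.6% lower. Uhrf1, which brings DNMT1 to newly copied DNA, showed the largest difference (11.35 ± 0.48 against 12.50 ± 0.36, difference 1.15, SE 0.21, adjusted p = 0.00027). Trim28, the corepressor that ZFP57 recruits, was higher by 0.55 (SE 0.08, adjusted p = 3.28e-05).

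**Figure D4:**
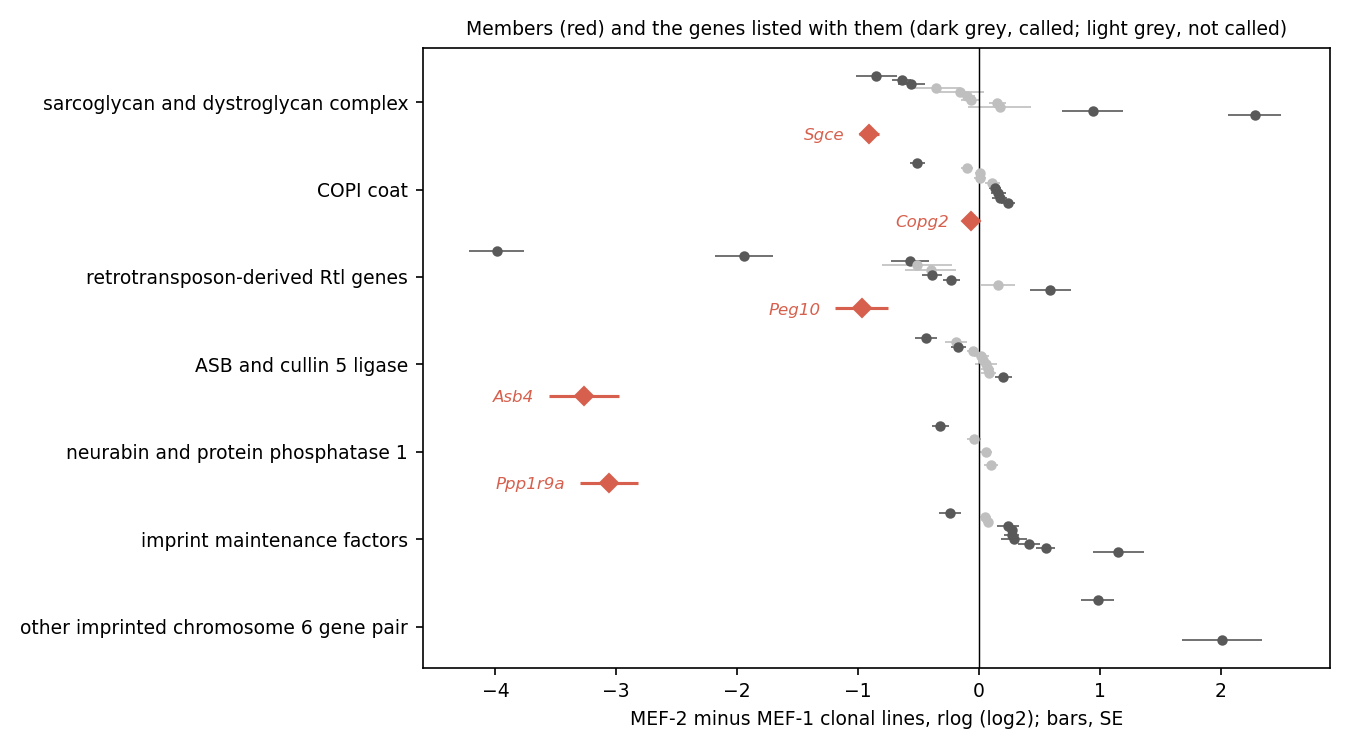
Difference of MEF-2 from MEF-1 in clonal lines (x axis, rlog, log2 scale, bars giving the SE) of 5 members (red diamonds) beside the fitted genes of each list (grey circles, dark where called). Sgce, Asb4 and Ppp1r9a lie at or beyond the lower end of their lists, Copg2 lies within its list, and Rtl6 (−3.99) lies below Peg10.

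With each set centred on its own mean, the genes whose pattern over the 14 clonal lines was most like that of a member lay on other chromosomes. For Mest these were Fermt3 (r = 0.893), Limch1 (0.89) and Tipin (0.878), for Peg10 Mrpl37 (0.945), Daxx (0.945) and Sars2 (0.943), and for Sgce Zbtb20 (0.917), Nbeal1 (0.916) and Lgr6 (0.901). The closest genes were less alike for Asb4 (Klc2, 0.839), Ppp1r9a (Gpc3, 0.845) and Copg2 (Ccnb1ip1, 0.862). These are the highest of the correlations with all genes fitted and are given as a description. Among the members themselves, the closest pair over the 14 centred lines was Peg10 and Asb4 (0.617, and 0.651 without the 2 farthest lines). It was 0.751 in MEF-2 and 0.561 in MEF-1, where it fell to 0.183 without the 2 farthest lines and where Mest and Peg10 were closer (0.653, and −0.0592 without the 2 farthest).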

How the data were processed

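Total RNA of 16 lines was depleted of ribosomal RNA and sequenced from directional libraries. The authors trimmed reads (Trim Galore 0.6.0), quantified transcripts on mm10 (Salmon 1.5.2) and deposited rlog values, which are on a log2 scale, made with DESeq2 1.24.0. Depth per line, strand settings and how transcripts were summed to genes are not given in the sources used here. Positions and symbols came from GENCODE mouse release 21 through the Ensembl identifier (54200 of 54453 found). Values were used as deposited. Protein-coding genes with an average above 0 (15285) were fitted with limma 3.58.1 (R 4.3.3, trended variance, Benjamini-Hochberg adjustment, calls under 0.05) for 7 MEF-2 against 7 MEF-1 clonal lines. p-values measure the spread between clones of a single embryo. The chromosome 6 median covered 617 protein-coding genes with an average over 3.75 (the 40th percentile), without members, as deviations from the mean of the 14 clonal lines, and was compared after centring each line on its autosomes. Values relative to it were tested by two-sided exact permutation (Python 3.11.15, scipy 1.17.1). Computations were tested on simulated data. The members and lists were chosen with earlier results of these data known. Named in the text are all members and, per list, the 2 called genes with the largest differences and those nearest to a member. Others were chosen after their values were seen. One neighbour that the rule names is counted but not reported here. Similar genes are those with the highest correlations over the 14 centred clonal lines. Alternatives were other filters, variance priors, scalings and references, parental lines added, a replicate block, and single lines left out.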

Additional observations from a re-analysis of the deposited data

Results flagged for a closer look

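None of the 6 members had a clonal line set apart from the others of its set by Dixon's test. Among the members, the genes named beside them and the chromosome 6 median, 7 of 56 sets of 7 clonal lines had such a line, where chance gives about 1 in 20, or 2.8. Each is given with the gap to the nearest line as a share of the range. Cope was lowest in MEF-1 line 1 (12.64, next 12.85, 0.605), Copz2 highest in MEF-2 line 2 (12.25, next 12.08, 0.6), and Rtl8c highest in MEF-2 line 3 (6.77, next 6.03, 0.59). Dlx5 was lowest in MEF-1 line 6 (4.78, next 6.79, 0.589) and highest in MEF-2 line 6 (7.40, next 5.88, 0.578). The chromosome 6 median, centred on the autosomes, was lowest in MEF-1 line 6 (−0.055, next 0.013, 0.587) and highest in MEF-2 line 5 (0.032, next −0.032, 0.62).

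Ppp1r9a lay above the parental line in all 7 MEF-1 clonal lines (mean difference 0.57) and below it in all 7 MEF-2 clonal lines (−1.12). This difference between the sets was not tested, as each rests on 1 parental library.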

How the results depend on the processing

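Of 302 values of the 14 main results under alternative settings, 300 kept the side of the threshold or, for the number of genes called, stayed within 1.5 times the main count. The 2 others concern the chromosome 6 median difference, which was no longer past the threshold in the fit with a replicate block (−0.0537, sign flips over 7 pairs, exact p = 0.0625) and without MEF-1 clonal lines 4 and 5 (−0.0426, exact p = 0.0631, chosen after seeing the data). The differences ranged from −2.08 to −1.45 in Mest, −1.08 to −0.78 in Peg10, −0.95 to −0.85 in Sgce, −3.37 to −2.89 in Asb4, −3.15 to −2.85 in Ppp1r9a and −0.10 to −0.02 in Copg2. The number of genes called ran from 7760 to 9872. Clones share only a number across the sets, not an origin. Same-numbered clones had correlations from −0.133 to 0.2, and 1 of 7 correlated best with its own number. The block gave 8226 calls against 8573. Of 501 values of 21 other named genes, 34 lost a call (15 each in Cpa4 and Dlx5, 4 in Tsga13) and 2 gained one (Pdk4, adjusted p = 0.0408 with the block and 0.0485 without MEF-2 line 7, limma). Alternatives that move the centre of all genes shifted the median difference from −0.0043 to between −0.0375 and 0.043, and the calls from 4208 higher and 4365 lower to 4828 and 3846 with the chromosome 6 median taken off, 3828 and 4745 with autosomal centring, and 4533 and 3997 with quantile normalisation. The depth of the lines is unknown, so that no limit from counting can be given.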

Other observations

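Among non-coding transcripts of the clusters, 2 of 4 names were found in the table. Mir335, whose hairpin lies within Mest, was listed at 0 in all 16 lines. Dlx6os1, antisense to Dlx6, ran from 3.00 to 4.45 in the MEF-1 clonal lines and between 2.46 and 3.57 in those of MEF-2, overlapping sets that were not tested, as the fit held protein-coding genes.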
